A study of Rattus norvegicus with 4 samples.

Results

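Lubricin, cartilage oligomeric matrix protein (COMP), the thrombospondins, the spondins and tenascin C are secreted glycoproteins of the extracellular matrix. Their 9 rat genes, Prg4, Comp, Thbs1, Thbs2, Thbs3, Thbs4, Spon1, Spon2 and Tnc, were looked up by gene symbol in the authors' table of probe values, and 8 of the 9 were found, out of 27057 features on the array. Of these, 7 genes were listed under their own symbol with 8 probes. Thbs3 was found through its Entrez gene number, 681309, because the table lists it under a LOC identifier as a gene similar to the thrombospondin 3 precursor. No probe was matched to Thbs4, which was not analysed here. The genes were picked with their behaviour in these cells already known, so their differences between the cultures are given as a description, without a test.

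Cells from rat bone marrow were cultured for 15 days at high density or at regular density, and total RNA from each culture was labelled with Cy3 and hybridised to a one-colour Agilent expression array. There were 2 high density arrays and 2 regular density arrays. All 4 samples came from Wistar rats aged 6 weeks, all 4 are labelled as endothelial progenitor cells, and no genetic change or drug is named for either group. The series' design text speaks of 2 independent experiments with different high density cells, while the number of cells seeded, the number of animals and whether marrow was pooled are unstated in the labels and design text.

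As background, thrombospondins fall into 2 groups by structure. Thbs1 and Thbs2 form trimers that carry properdin-like type 1 repeats and bind the receptors CD36 and CD47, whereas Thbs3, Thbs4 and COMP form pentamers without those repeats and bind collagens and other matrix proteins. Spondins carry the same type 1 repeats, lubricin is the mucin-like boundary lubricant of joint surfaces and tendon sheaths, and tenascin C is a matrix protein of wounds, tendon and growing tissue that weakens cell adhesion to fibronectin.

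The upstream sequences of the members are shown for 4 genes, the lower pair Prg4 and Comp and the higher pair Thbs1 and Tnc. Each sequence comes from RefSeq (rat assembly GRCr8) and holds 300 bases, 250 before to 50 after the annotated start, written 5′ to 3′ on the gene's strand. The table held such a window for 7 of the 9 members, and none for Thbs2 or Spon1. Capitals mark every match to one of 10 motifs searched on both strands: TATANA (TATA-like), the CArG box, TGANTCA and TGACGTCA (the AP-1 and cyclic AMP response motifs), GTCTAGAC and CAGAC (SMAD), GGAATG (TEAD), GTAAACA (forkhead), GGGCGG (GC box) and ACAATG (SOX).
Prg4, chr13:65054176-65054475, minus strand: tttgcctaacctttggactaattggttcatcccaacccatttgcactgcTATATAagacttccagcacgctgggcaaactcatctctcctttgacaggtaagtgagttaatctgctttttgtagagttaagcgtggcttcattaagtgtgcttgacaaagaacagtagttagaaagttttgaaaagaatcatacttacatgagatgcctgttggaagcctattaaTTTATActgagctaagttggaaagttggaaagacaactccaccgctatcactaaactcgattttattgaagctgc
Comp, chr16:19089499-19089798, minus strand: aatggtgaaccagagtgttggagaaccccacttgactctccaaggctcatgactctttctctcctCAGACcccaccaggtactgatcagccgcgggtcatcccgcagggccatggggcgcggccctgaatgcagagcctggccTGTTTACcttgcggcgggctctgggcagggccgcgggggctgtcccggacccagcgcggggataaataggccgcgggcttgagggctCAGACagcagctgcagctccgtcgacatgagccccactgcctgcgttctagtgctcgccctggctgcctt
Thbs1, chr3:125510000-125510299, plus strand: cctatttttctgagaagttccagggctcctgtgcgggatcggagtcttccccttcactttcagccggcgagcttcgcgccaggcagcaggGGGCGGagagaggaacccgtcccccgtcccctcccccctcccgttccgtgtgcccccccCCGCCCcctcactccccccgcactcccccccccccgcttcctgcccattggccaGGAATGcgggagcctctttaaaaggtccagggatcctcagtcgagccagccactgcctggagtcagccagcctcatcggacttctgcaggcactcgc
Tnc, chr5:82476082-82476381, minus strand: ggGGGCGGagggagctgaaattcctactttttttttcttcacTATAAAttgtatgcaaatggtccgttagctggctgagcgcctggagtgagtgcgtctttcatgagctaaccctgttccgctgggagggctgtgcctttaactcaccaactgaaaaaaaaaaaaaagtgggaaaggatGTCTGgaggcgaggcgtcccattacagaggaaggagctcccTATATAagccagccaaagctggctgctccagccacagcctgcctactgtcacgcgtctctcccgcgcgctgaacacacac

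The 4 windows differed in base composition. The Prg4 window held 39.3% G and C, the Comp window 64.7%, the Thbs1 window 67.0% and the Tnc window 52.3%, against a median of 51.7% over 33469 rat promoter windows. A TATA-like match stood at position -30 on the gene's own strand in Tnc and at -25 on the opposite strand in Prg4, counting the start base as 1, and 26.5% of all windows held such a match somewhere. The forkhead motif matched once in Comp, at -107 on the opposite strand, and is held by 3.78% of all windows. CAGAC matched in 4 of the 7 members with a window, Comp and Tnc among them, against 50.1% of all windows. GGGCGG matched in 5 of the 7, Thbs1 and Tnc among them, against 33.1%. The TEAD motif matched in Thbs1 at -47 and also in Thbs4, against 14.2% of all windows. The CArG box, TGANTCA, TGACGTCA, GTCTAGAC and ACAATG matched in no member window, and their shares of all windows were 1.64%, 7.33%, 1.83%, 0.197% and 13.2%. A match describes letters in these windows and was not tested as a binding site.

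Array intensities are the Cy3 signals of each probe as the scanner software left them after its own steps, in linear units. They were put on a log2 scale and shifted so that each array had the same 75th percentile, and these are called scaled log2 intensities. The 75th percentile before scaling was 386 and 462 on the high density arrays, against 355 and 435 on the regular density arrays. A probe counted as above background where its signal passed the 99th percentile over that array's 153 negative controls. That level was 34.5 and 28.2 at high density, against 29.5 and 36.9 at regular density. The median negative control read 13.4 at high density, against 10.5 at regular density, for replicate 1, and 1.93 at high density, against 1.99 at regular density, for replicate 2. The arrays thus split by replicate number in this measure. For that reason the differences within each replicate number are printed for every member other than Spon1, whose regular density values lay under background. With 2 arrays a group, the number of arrays limits the precision of every value.

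The labelled cell type was set against its markers. Of 12 endothelial markers, 6 were above background on all 4 arrays and 3 on none, and Cdh5, the endothelial cadherin, was above it on all 4. Their summed scaled intensity was 1938 and 1651 at high density, against 1028 and 907 at regular density. Of 6 bright enough to test, limma called 2 higher and 0 lower at high density, where 30.9% of all tested features were called. The 2 were Mcam, at 2.33, and Flt1, at 1.59 (log2 differences), named after their values were seen. Pecam1 was above background on no high density array and 1 regular density array, and Kdr on 1 high density array and no regular density array. Cd34 was below background on all 4 arrays. Prom1, a progenitor marker, had scaled log2 intensities of 6.13 and 6.40 at high density, above background, and 3.72 and 4.25 at regular density, below it. Of the 4 progenitor markers Prom1, Kit, Cd34 and Kdr, 0 were above background on every array. Kit, like Cd34, was below it on all 4 arrays. The RNA came from whole cultures, so fewer cells of a type and less RNA per cell cannot be told apart.

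Lubricin and COMP were far lower at high density. Spondin 1 was far higher and tenascin C was higher. Thrombospondin 1, spondin 2 and thrombospondin 3 had smaller differences in the same direction as tenascin C, and thrombospondin 2 differed by less than its replicates. Over the 8 members, the 2 groups of arrays did not overlap for 7, of which 5 were higher and 2 lower at high density. Groups that do not overlap made up 28.0% (higher) and 41.7% (lower), 69.7% in all, of the 13683 features bright enough to test, and because the members were chosen on this contrast nothing is read from that comparison. A log2 difference above 1 was seen for 2 members, Spon1 and Tnc, and one below -1 for 2 members, Prg4 and Comp, against 4.77% and 1.85% of tested features, or 6.62% in either direction. The median difference of the 8 members was 0.42, against -0.079 over all tested features, which became -0.20 with median scaling and 0.027 without scaling. Nothing is read from the shares beyond 1 or from the medians either, because the members were chosen on this contrast. Spon1 was bright enough to test through its high density arrays alone, and Prg4 through its regular density arrays alone.

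**Figure D1:**
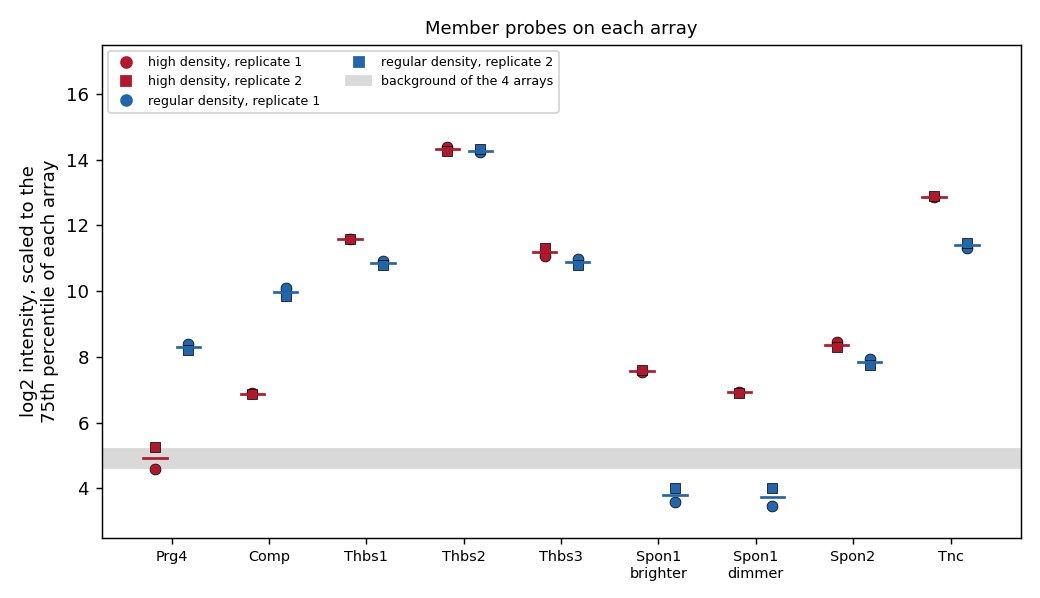
Scaled log2 intensity (vertical axis) of each member probe on each array, with high density to the left in red and regular density to the right in blue. Circles are replicate 1, squares replicate 2, bars the group mean, and the grey band spans the background level of the 4 arrays. Prg4 and Comp sit lower at high density and Spon1 and Tnc higher, the Spon1 points at regular density lie under the band, and the Thbs2 points of the 2 groups overlap.

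Prg4 encodes lubricin, also called proteoglycan 4, which synovial lining cells and surface chondrocytes secrete. Its probe (Entrez gene 289104, listed at chr13:64754998-64755057 with no assembly named) read an intensity of 22.7 and 43.8 on the high density arrays, against 290 and 315 on the regular density arrays. Both high density values were far below both regular density values, and 1 of the 2 high density arrays was below background. On the scaled log2 scale Prg4 averaged 4.93 ± 0.49 at high density and 8.29 ± 0.12 at regular density (SD, n = 2 each). The measured log2 difference was -3.37, and it ranged from -3.80 to -2.93 over the 4 pairs of arrays. It was -3.80 within replicate 1 and -2.93 within replicate 2.  The 2 high density replicates were 0.69 apart, the widest gap of any member within a group, and one of them lay under background, so the size of this difference rests in part on a value near the floor.

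Comp, whose pentameric product binds collagens and helps fibrils assemble in cartilage, tendon and ligament, followed the same direction. Its probe (Entrez gene 25304) read 113 and 132 at high density, against 945 and 992 at regular density. The groups lay far apart, and all 4 arrays were above background. Comp averaged 6.88 ± 0.03 at high density and 9.97 ± 0.16 at regular density (scaled log2, SD, n = 2 each). The log2 difference was -3.09, 8.53-fold between the brighter and dimmer group, with a range of -3.22 to -2.96 over array pairs and a value of -3.19 within replicate 1 and -3.0005 within replicate 2. It ranked 10th among the falls.

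**Figure D2:**
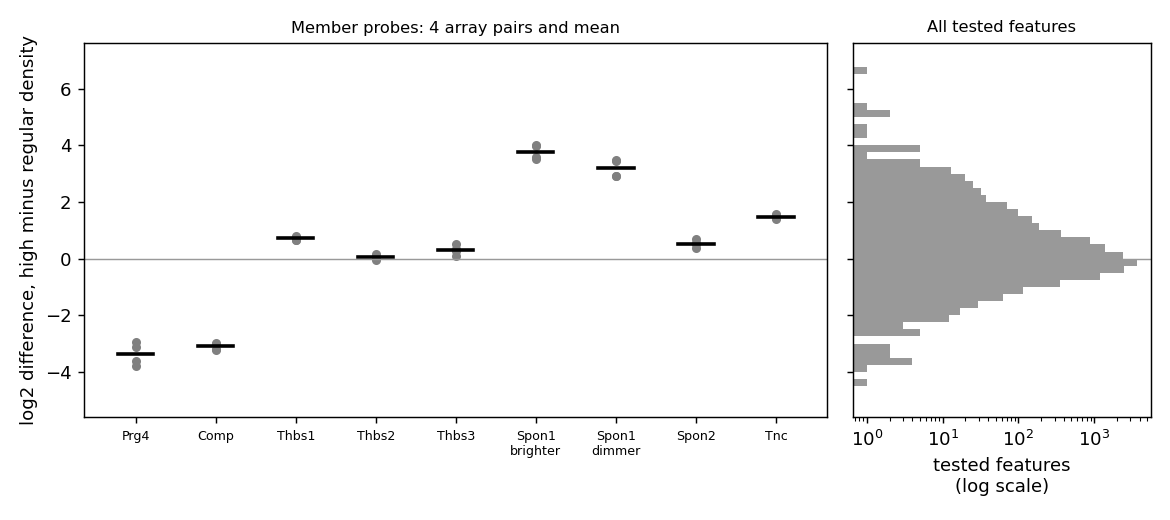
Left, log2 difference of each member probe, high minus regular density: grey points are the 4 array pairs and the black bar the difference of means. Right, the same difference for all 13683 tested features as a histogram with a log count axis. Prg4 and Comp lie near -3.4 and -3.1 in the sparse lower tail, the Spon1 points rest on regular density values under background, and Thbs2 lies at 0.05.

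Thrombospondin 1 and 2 are the trimeric members that bind CD36 and CD47 and restrain vessel growth. Thbs1 (Entrez gene 445442) read 2903 and 3519 at high density, against 1698 and 1912 at regular density. Both high density arrays exceeded both regular density arrays. The scaled means were 11.59 ± 0.01 at high density and 10.87 ± 0.09 at regular density (SD, n = 2 each), a difference of 0.72, 1.65-fold, with 0.65 and 0.79 within replicates 1 and 2. Thbs2 (Entrez gene 292406) read 20417 and 22131 at high density, against 16850 and 21705 at regular density. After scaling its groups overlapped, with 14.40 and 14.25 at high density, against 14.24 and 14.31 at regular density. The Thbs2 difference was 0.05, within the spread of its replicates, and it was 0.16 within replicate 1 and -0.06 within replicate 2. Its sign also changed with the scaling, to -0.078 when arrays were scaled on their median, and it was 0.34 after quantile normalisation.

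Thrombospondin 3 belongs with COMP among the pentameric members. Thbs3 read 2017 and 2883 at high density, against 1749 and 1899 at regular density. The scaled values were 11.06 and 11.31 at high density, against 10.97 and 10.80 at regular density, so the groups did not overlap but the nearest arrays were only 0.08 apart. The difference was 0.30, 1.23-fold, with 0.08 within replicate 1 and 0.51 within replicate 2.

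Spondin 1, or F-spondin, is a matrix protein with thrombospondin type 1 repeats known from the floor plate of the neural tube, where it steers axons. It was measured by 2 probes. The brighter one (Entrez gene 64456, listed at chr1:172019366-172019425) read 178 and 221 at high density, against 10.5 and 17.3 at regular density. It was above background on both high density arrays and on neither regular density array, so regular density gives only an upper bound. Spon1 passed the intensity filter through its high density arrays alone. Against the background level, Spon1 was at least 5.59-fold higher at high density. The measured scaled means were 7.58 ± 0.04 at high density and 3.81 ± 0.31 at regular density (SD, n = 2 each), and the regular density values are under background. The dimmer probe read 117 and 137 at high density, against 9.71 and 17.2 at regular density. It was likewise above background at high density alone and gave a bound of at least 3.56-fold higher.

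Spondin 2, or mindin, is a secreted relative of spondin 1 that binds microbial surfaces and integrins in innate immunity. Spon2 (Entrez gene 171569) read 329 and 359 at high density, against 212 and 231 at regular density. The groups did not overlap. The scaled means were 8.37 ± 0.09 at high density and 7.84 ± 0.12 at regular density (SD, n = 2 each), a difference of 0.53, 1.45-fold, with 0.51 within replicate 1 and 0.55 within replicate 2.

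Tenascin C, encoded by Tnc (Entrez gene 116640), read 7017 and 8597 at high density, against 2230 and 3027 at regular density. Both high density arrays were well above both regular density arrays. The scaled means were 12.87 ± 0.02 at high density and 11.40 ± 0.11 at regular density (SD, n = 2 each). The difference was 1.47, 2.78-fold, and the pairs of arrays ranged from 1.38 to 1.57, with 1.53 and 1.42 within replicates 1 and 2.

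The same values were read from the authors' deposited table, which holds the authors' own normalised log2 values. There the high minus regular density differences were -3.41 for Prg4, -3.12 for Comp, 0.79 for Thbs1, 0.34 for Thbs2, 0.38 for Thbs3, 4.06 for the brighter Spon1 probe (against values under background), 0.51 for Spon2 and 1.61 for Tnc. The members ranked in the same order by these differences as by the differences given above.

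Summed markers of some other cell types differed between the groups in these arrays, and those of others overlapped. The summed scaled intensity of 11 smooth muscle and pericyte markers was 173790 and 167449 at high density, against 32736 and 32863 at regular density, and 8 of them were above background on every array. Of 9 tested, 7 were called higher and 0 lower by limma, while Des and Pdgfrb were lower without overlap and not called. Of 8 synovial and tendon markers, leaving out the members, the sum was 16413 and 17330 at high density, against 25123 and 22412 at regular density. Fmod, the brightest of them, fell by 0.99 ± 0.11 (SE; limma adjusted p = 0.00166) and set that difference: without it, as summed after its values were seen, the groups overlapped, at 9060 and 10241 at high density, against 9730 and 8981 at regular density. Of the 5 tested, 2 were called lower by limma and 3 were not called, where 30.9% of all tested features were called. The tendon regulator Scx overlapped between groups, with 11.06 and 11.63 at high density, against 11.49 and 11.13 at regular density. Tnmd, a tendon membrane protein, read 5.83 and 6.10 at high density, against 3.43 and 4.75 at regular density, where both arrays were below background. Tnmd was too dim to test and was at least 1.83-fold higher at high density. The sum of 10 chondrocyte markers was 1244 and 1128 at high density, against 800 and 753 at regular density, and of the defining chondrocyte genes Acan was below background on all 4 arrays whereas Col2a1 was above it on all 4. Of the 5 chondrocyte markers tested, limma called 2 higher, Col9a2 and Sox9, and 0 lower. Platelets carry thrombospondin 1. Of 11 megakaryocyte and platelet markers, 7 had a probe, 3 of these were above background on every array and 3 on none, and their sum was 14215 and 13662 at high density, against 12353 and 12155 at regular density. Gp1bb, a subunit of the platelet receptor for von Willebrand factor, rose by 0.75 ± 0.14 (limma adjusted p = 0.0097). Gp1ba and Gp9 of the same list were below background on all 4 arrays. Gp5 had a difference of 0.54 without overlap and was not called (limma adjusted p = 0.0675). Des, Pdgfrb, Fmod, Gp1bb, Gp1ba, Gp9 and Gp5 were singled out after their values were seen. Pf4, a platelet chemokine, read 13.58 and 13.55 at high density, against 13.45 and 13.45 at regular density and was not called. Ppbp was below background on all arrays and Itga2b had no matched probe. The 11 macrophage markers summed to 41937 and 36582 at high density, against 29547 and 27806 at regular density. Of 9 tested, 5 were called higher and 1, Cd14, lower, and the brightest, Cd68, overlapped between groups. Cd14 and Cd68 were singled out after their values were seen. The 9 fibroblast and stromal markers summed to 264781 and 247882 at high density, against 257680 and 223892 at regular density, so the groups overlapped. Of these 9, 3 were called higher and 2 lower. The part of these cell types in the members' differences was not tested.

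The genes that act with the members were described through 10 lists of receptors, partners, enzymes, relatives and regulators, tested with limma over all 13683 features and called at a Benjamini-Hochberg adjusted p under 0.05. Over all features 30.9% were called, 13.0% higher and 17.9% lower at high density. Across the lists 119 distinct genes were tested, of which 28 rose and 25 fell, 44.5% of them called, and their median difference was 0.10. The lists were chosen with earlier results of these data known. Nothing is therefore read from their shares or counts against those of all features. With the replicate number as a block, 44 rose and 36 fell. Over all features, scaling changed the balance of directions: 1393 were higher and 578 lower without scaling, and 1204 higher and 3246 lower when arrays were scaled on their median, against 1780 and 2453. The limma p-values reflect array to array spread alone, which may be partly technical, because the labels do not tie each array to a separate animal or culture.

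**Figure D3:**
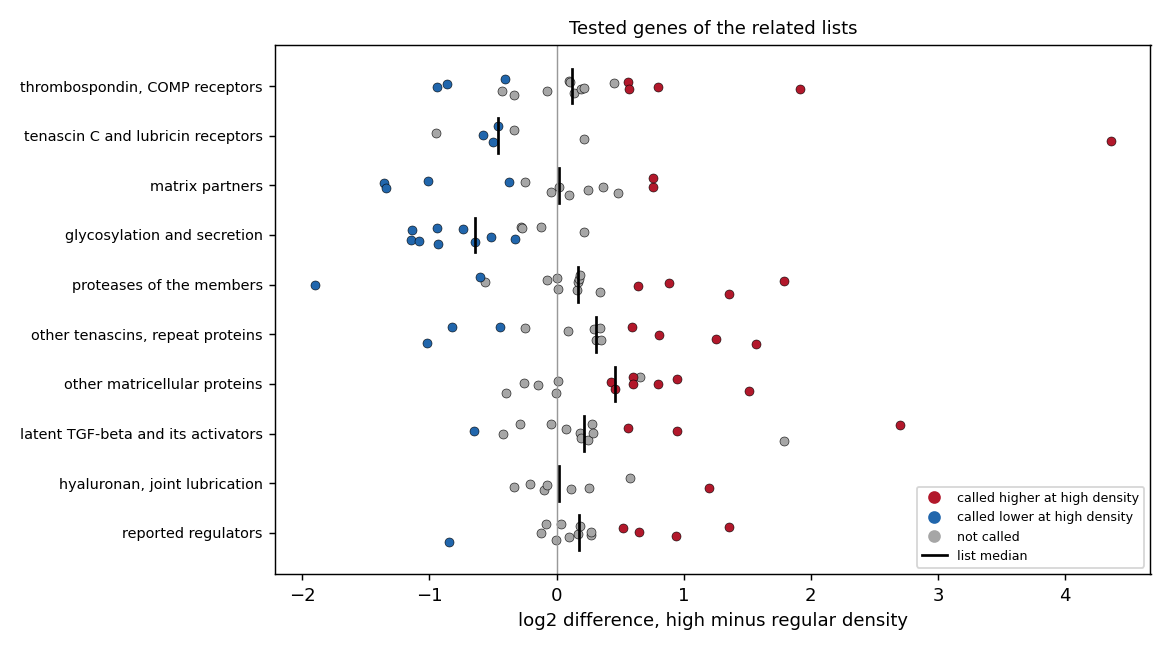
Log2 difference, high minus regular density (horizontal axis), of each tested gene in the 10 related lists, one list per line. Red points rose and blue points fell by limma, grey points were not called, and the black bar is the list median. The glycosylation and secretion list has its 9 called genes all on the lower side, and Itga8 among the receptors is the point farthest to the right.

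Of 16 tested receptors of thrombospondins and COMP, 4 rose, 3 fell and 9 were not called. Sdc1, the heparan sulfate proteoglycan syndecan 1 that binds thrombospondins, rose, with 12.02 and 12.25 at high density, against 10.15 and 10.29 at regular density, a log2 change of 1.92 ± 0.12 (SE; limma adjusted p = 0.000228). Lrp1, the endocytic receptor that clears thrombospondins, fell by 0.86 ± 0.11 (limma adjusted p = 0.0031). Calr, calreticulin, which acts with Lrp1 as a cell surface receptor for Thbs1 and as a chaperone of the endoplasmic reticulum, fell by 0.94 ± 0.10 (limma adjusted p = 0.00164). Scarb1, a relative of CD36, rose by 0.57 ± 0.12 (limma adjusted p = 0.014). Cd36, a Thbs1 receptor that also takes up fatty acids, had a difference of -0.33 ± 0.13 and was not called (limma adjusted p = 0.0946). Cd47, the other main Thbs1 receptor, had a difference of -0.40 ± 0.10 (limma adjusted p = 0.0234). That call was lost under quantile normalisation, without scaling, with the authors' normalised values and when its probes were averaged. It was also lost without any one of high density replicates 1 and 2 or regular density replicate 2. Itgb1, the integrin beta chain that many of these receptors share, rose by 0.56 ± 0.13 (limma adjusted p = 0.0233), a call lost with median scaling and without high density replicate 1 or regular density replicate 2.

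Receptors of tenascin C and lubricin numbered 7 tested, with 1 higher, 3 lower and 3 not called. Itga8, which pairs with Itgb1 to bind tenascin C and fibronectin, rose, with 9.35 and 9.50 at high density, against 4.66 and 5.48 at regular density. One of its regular density arrays was below background, so its log2 change of 4.36 ± 0.26 (limma adjusted p = 0.000225) depends partly on a value there. A dimmer second Itga8 probe gave 3.09 in the same direction and was above background on 1 high density array alone. Tlr4, the innate receptor that tenascin C can engage, fell by 0.58 ± 0.10 (limma adjusted p = 0.00809), and Tlr2, its relative, had a change of -0.46 ± 0.09 (limma adjusted p = 0.0141); both calls were lost without scaling, and that of Tlr2 also without either high density replicate. Cd44, a receptor that lubricin and hyaluronan bind, had a difference of -0.33 ± 0.13 and was not called (limma adjusted p = 0.103). A dimmer Cd44 probe above background on every array gave 0.82, so the probes disagree in direction. Anxa2, the annexin that binds tenascin C, fell by 0.50 ± 0.12 (limma adjusted p = 0.0217). That call was lost without scaling, after quantile normalisation, with the authors' normalised values and without high density replicate 2. Itga9, another integrin chain that binds tenascin C, was not analysed here.

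Of 13 matrix partners of COMP and the thrombospondins, 2 rose and 4 fell, with 7 not called. Matn4, a matrilin, fell by 1.36 ± 0.18 (limma adjusted p = 0.00342), Dcn, the collagen-binding proteoglycan decorin, by 1.34 ± 0.09 (limma adjusted p = 0.000297) and Ecm1 by 1.01 ± 0.11 (limma adjusted p = 0.00166). Col9a2, a chain of the type IX collagen that COMP binds, rose by 0.76 ± 0.10 (limma adjusted p = 0.00384). The list of glycosylation and secretion of thrombospondin repeats also holds chaperones and isomerases of the endoplasmic reticulum. For its 13 tested genes limma called 9 lower and 0 higher, with 4 not called, and the median difference was -0.64. At an unadjusted p under 0.05, 10 were lower and 0 higher, and quantile normalisation gave 7 lower and 1 higher. The genes with the smallest p in that list included the endoplasmic reticulum chaperone Hsp90b1, at -1.13 ± 0.09 (limma adjusted p = 0.000565), and the disulfide isomerases Pdia4, at -1.14 ± 0.10 (limma adjusted p = 0.000662), and Pdia6, at -0.93 ± 0.11 (limma adjusted p = 0.00263). Calr belongs to this list as well. Its tested glycosylation enzymes differed less, and they were named after their values were seen. Pofut2, at -0.28 ± 0.12 (limma adjusted p = 0.121), and B3glct, at -0.12 ± 0.14 (limma adjusted p = 0.523), were not called. Dpy19l1 was called lower, at -0.33 ± 0.10 (limma adjusted p = 0.0468).

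The list of proteases that cut COMP, thrombospondins, tenascin C or lubricin also holds the plasminogen activators Plat and Plau. Of its 15 tested genes, 4 rose, Plat and Plau among them, 2 fell and 9 were not called. Adamts5, an aggrecan-cleaving enzyme, fell, with 6.46 and 6.65 at high density, against 8.40 and 8.50 at regular density, a log2 change of -1.90 ± 0.13 (limma adjusted p = 0.000297). Mmp7, the matrilysin, rose by 1.79 ± 0.12 (limma adjusted p = 0.000293), Plg, plasminogen, by 1.35 ± 0.12 (limma adjusted p = 0.000769), and Plat, the tissue plasminogen activator, by 0.89 ± 0.09 (limma adjusted p = 0.0014).

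Relatives of the members changed in both directions. Of 13 other tenascins and proteins with thrombospondin repeats, 4 rose, 3 fell and 6 were not called. Tnn, tenascin N, rose, with 14.86 and 14.78 at high density, against 13.30 and 13.22 at regular density, a log2 change of 1.57 ± 0.10 (limma adjusted p = 0.000239), and its second probe gave 1.63. Rspo1, an R-spondin that enhances Wnt signalling, rose by 1.26 ± 0.14 (limma adjusted p = 0.00166), whereas Ccn3 and Ccn5, matricellular CCN proteins, fell by 1.02 ± 0.10 (limma adjusted p = 0.000961) and 0.82 ± 0.09 (limma adjusted p = 0.00189). Of 13 other matricellular proteins, limma called 7 higher and 0 lower, with 6 not called, and at an unadjusted p under 0.05 there were 7 higher and 1 lower. With median scaling 4 were higher and 1 lower. The higher genes included Nid1, a nidogen of basement membranes, at 1.51 ± 0.13 (limma adjusted p = 0.000604), Ltbp2 at 0.94 ± 0.11 (limma adjusted p = 0.00186), Smoc2 at 0.80 ± 0.10 (limma adjusted p = 0.00261) and Sparc at 0.60 ± 0.10 (limma adjusted p = 0.00803), the last lost with median scaling.

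Thbs1 is known to activate latent TGF-beta. Of 14 tested genes for TGF-beta, its latency proteins and activators, 3 rose, 1 fell and 10 were not called. Tgfb3 rose, with 14.20 and 14.10 at high density, against 11.50 and 11.39 at regular density, a log2 change of 2.71 ± 0.10 (limma adjusted p = 8.08e-05), 6.52-fold. Ltbp3, a latency binding protein, fell by 0.65 ± 0.12 (limma adjusted p = 0.0104), a call lost without scaling. Of 8 tested hyaluronan and lubrication genes, Cemip, which takes part in hyaluronan breakdown, rose by 1.20 ± 0.21 (limma adjusted p = 0.00894) and the other 7 were not called, with 1 of them lower at an unadjusted p under 0.05. Of 14 regulators reported for lubricin, COMP and tenascin C, 4 rose, 1 fell and 9 were not called. Sox9, the cartilage regulator, rose by 1.36 ± 0.14 (limma adjusted p = 0.00146), a call lost when probes were averaged, Srf, serum response factor, by 0.94 ± 0.09 (limma adjusted p = 0.00109) and Egr1 by 0.65 ± 0.10 (limma adjusted p = 0.0064), while Klf4 fell by 0.85 ± 0.12 (limma adjusted p = 0.00432).

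The named genes whose profiles over the 4 arrays were nearest to each strongly differing member were found among 10650 other tested named genes, by the distance between centred log2 profiles. With 4 arrays such likeness rests on the group difference, so it is a description. Nearest to Prg4 were Apln, the peptide apelin (distance 0.46), Pmel, a melanosome protein (0.56), and Mt1, a metallothionein (0.57). Comp lay nearest to Apln (0.34), Mt1 (0.47) and C3, the complement component (0.51). Apln and Pmel were below background on both high density arrays, and were lower there by at least 7.39-fold and 8.91-fold. Nearest to Spon1 were Il1rl1, a receptor of the interleukin 1 family (0.15), Acta1, the skeletal muscle actin (0.23), and Spink8 (0.33). Spink8, like Spon1, was below background on both regular density arrays and was higher at high density by at least 5.35-fold. Distances that involve Apln, Pmel, Spink8, Spon1 or the high density values of Prg4 thus rest in part on values under background. A dimmer Il1rl1 probe gave -0.31, against 3.66 for the brighter one. For Tnc they were Crip1 (0.027), Prss35 (0.062) and Ckap2 (0.069).

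**Figure D4:**
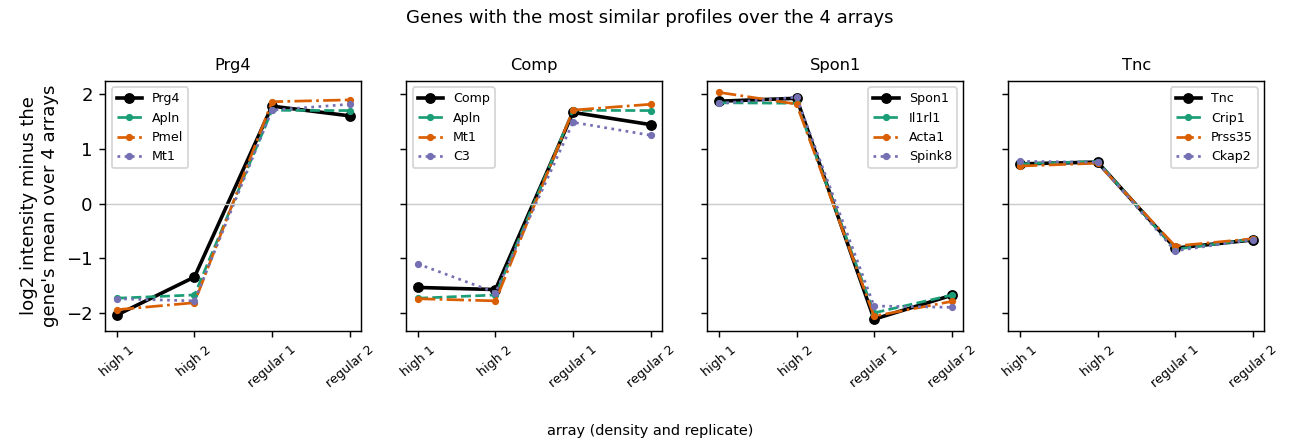
Centred scaled log2 intensity (vertical axis, minus each gene's mean) on the 4 arrays for Prg4, Comp, Spon1 and Tnc in black and for the 3 nearest genes of each in colour. High density arrays are left of regular density arrays in each panel. The coloured lines follow the black one most closely for Tnc, whose 3 neighbours lie within a distance of 0.069.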

How the data were processed

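The deposited intensity values are the signals remaining after the scanner software's steps, per the file headers, and the submitters' processing notes name Agilent Feature Extraction 11.0.1.1. The deposited log2 values are the authors' values normalised between arrays, for which the file headers name GeneSpring GX 12.0 and no method. The authors' table holds 21473 of 30367 probes and gives a probe's position with no assembly named.

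Log2 intensity was scaled per array to its 75th percentile. A gene took its probe of highest mean, and features with a mean log2 above 5.62, the median of all probes, were tested with limma 3.58.1 (R 4.3.3, lmFit and eBayes with a variance trend, Benjamini-Hochberg 0.05), a method also tested on simulated data. Python 3.11.15 with pandas 2.3.3 and matplotlib 3.10.9 made the summaries. Members, lists and motifs were chosen with earlier results of these data known, and the motifs with the sequences in view. Members carry no test. Named genes were up to 4 per list with the smallest p, the 3 genes nearest to each member with an absolute log2 difference above 1, and defining markers and receptors whatever their values. Alternatives covered scaling, filter, probe choice, variance trend, replicate block and leaving out each array. Thbs4 and Itga9 were not analysed here.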

Additional observations from a re-analysis of the deposited data

How the results depend on the processing

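The directions of the members held under every scaling, the floor, the authors' values, averaged probes and each left-out array, except for Thbs2. The Thbs2 difference was -0.078 with median scaling, -0.025 without high density replicate 1 and between -0.025 and 0.12 with an array left out. The series matrix values are the same as the authors' values, and averaging probes can alter Spon1 alone, so these add little. Filters, the variance trend and the replicate block cannot alter these descriptive differences and are no check of them. Ranges over the alternatives that can alter them were -3.71 to -3.02 for Prg4, -3.22 to -2.98 for Comp, 0.60 to 0.83 for Thbs1, 0.17 to 0.43 for Thbs3, 2.58 to 4.10 for Spon1 as measured against values under background, 0.41 to 0.64 for Spon2 and 1.35 to 1.61 for Tnc, where the low end for Spon1 came with a floor of 32 on intensity. Members without overlap numbered 6 with median scaling and 8 after quantile normalisation. Cd44 turned to 0.26 when its probes were averaged. Features called, 4233 in all, numbered 1971 without scaling, 2412 without high density replicate 1 and 2412 to 3976 over the 4 alternatives that leave out an array; the cause was not tested. With the replicate block, 7010 features and 80 related genes were called, against 53 related genes without it and 45 to 56 with an array left out. Across the tested features, the difference between replicates 1 and 2 at high density correlated at 0.37 with that at regular density. The labels do not say that a number marks one experiment, so no pairing was assumed. Among genes named by rule from the related lists or as nearest to a member, 46 were called. Of these, 37 stayed called under every alternative that gave a value and 9 did not. Most were picked for a small p or for likeness to a strongly differing member, so this share does not stand for the 53 related genes. Dim signal limits Prg4, below background on 1 of 2 high density arrays, and Spon1 at regular density, where only a bound can be given.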
